A study of Mus musculus with 11 samples.

Results

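In mouse muscle stem cells, 44 protein-coding genes held a smaller share of all counts after isolation than in cells fixed inside the muscle. Their share was larger again when 2 h at 37°C were added to the procedure. Each step was 1 or more on the log2 scale given below. The genes were chosen by their measured values. Counts were scaled to the library total as CPM (counts per 1000000), and each group's mean of log2(CPM + 0.5) was taken. A gene was kept if it was protein-coding, had a mean of at least 2 CPM in T0, was lower in T3 than in T0 by 1 or more on this log2 scale, and was higher in T5 than in T3 by 1 or more. Of 48709 genes in the table, 13862 were protein-coding with at least 2 CPM in T0. Of these, 3137 met the fall and 47 met the fall and the rebound. The rule leaves out 3 of the 47 by name: Hes1, Pdia4 and Col26a1.

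The cells were satellite cells, the stem cells of skeletal muscle. They were sorted by FACS out of pectoral, forelimb and hindlimb muscle of C57BL/6 mice with the transgene Tg:Pax7-nGFP, in which Pax7 sequence drives a green protein in the nucleus. In T0 (3 libraries) the whole muscle was fixed in 0.5% paraformaldehyde for 1 h at 4°C before any cell was taken out. In T3 (4 libraries) cells were isolated the standard way and fixed in 0.5% paraformaldehyde for 30 min on ice after sorting. T5 (4 libraries) had 2 h at 37°C in addition, with the same late fixation. The protocol in the labels puts these 2 h on dissected muscle in DMEM before the sort, while the series description puts them after the isolation, so what the cells met in that time is not settled. All 3 groups carry the transgene, and the cells of all 3 were fixed. The labels name 2 letters for T5, each with 2 libraries, and the libraries of a letter were added up, which leaves 3, 4 and 2 replicates. Whether replicates stem from separate animals is not said in the labels; p-values therefore reflect how much these samples vary, and that variation may be technical only.

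A satellite cell at rest sits between the muscle fibre and its sheath in reversible quiescence, with little RNA and a low rate of protein synthesis. Digesting the muscle and sorting the cells takes hours and by itself starts the programme of activation, in which immediate early and stress genes rise and genes of the resting niche fall. The endoplasmic reticulum kinase PERK, the D-type cyclins and growth factor receptors are among the known gates between rest and division. A level of RNA reflects both synthesis and decay, and in bulk samples fewer cells of a type and less RNA per cell cannot be told apart.

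Replicate totals were 49078859 to 72638711 counts in T0 and T3, and the T5 columns held 61837170 to 102347035. Counts at rRNA loci, which are part of these totals, were 3.57%, 9.62% and 13.8% in T0 replicates 1 to 3. They were 5.10% to 9.74% in T3, and 9.46% and 12.7% in letters A and B of T5. T0 stood apart from T3 and T5 on the first principal component, which held 68.4% of the variance. Pax7, the defining gene of satellite cells, was present in all libraries, and ranged between 2869 and 4181 CPM in T0, between 223 and 400 in T3 and between 314 and 352 in T5. Within T0, replicate 3 was the farthest from the others: the SD of its log2 ratio to replicate 1 over the 13862 genes was 0.62, against 0.29 between replicates 1 and 2. Within T5, the library pair most alike was column A6 of letter A and column B5 of letter B, with an SD of 0.18. The columns of a letter were less alike, at 0.37 for A and 0.24 for B. Of the other pairs across letters, A5 with B6 was at 0.23, A6 with B6 at 0.26 and A5 with B5 at 0.31. A sum by letter puts unlike columns together in both replicates. The spread between T5 replicates, which enters the p-values, may therefore be smaller than that between libraries.

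The fall and the rebound were the selection itself and are given as a description. Over the 44 genes the median was -1.60 for T3 minus T0 and 1.15 for T5 minus T3. Over the 3090 genes that fell without the rebound these medians were -1.48 and 0.05, and over all 13862 genes -0.14 and 0.03. A rise of 1 or more from T3 to T5 was rare among genes of any kind: it was seen in 1.5% of the genes that had fallen and in 1.54% of the 10725 that had not. The reverse course, up by 1 or more in T3 and then down by 1 or more in T5, was taken by 39 genes of the 1353 that went up. The 44 genes lie in the upper left corner of the plot of the 2 steps.

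**Figure D1:**
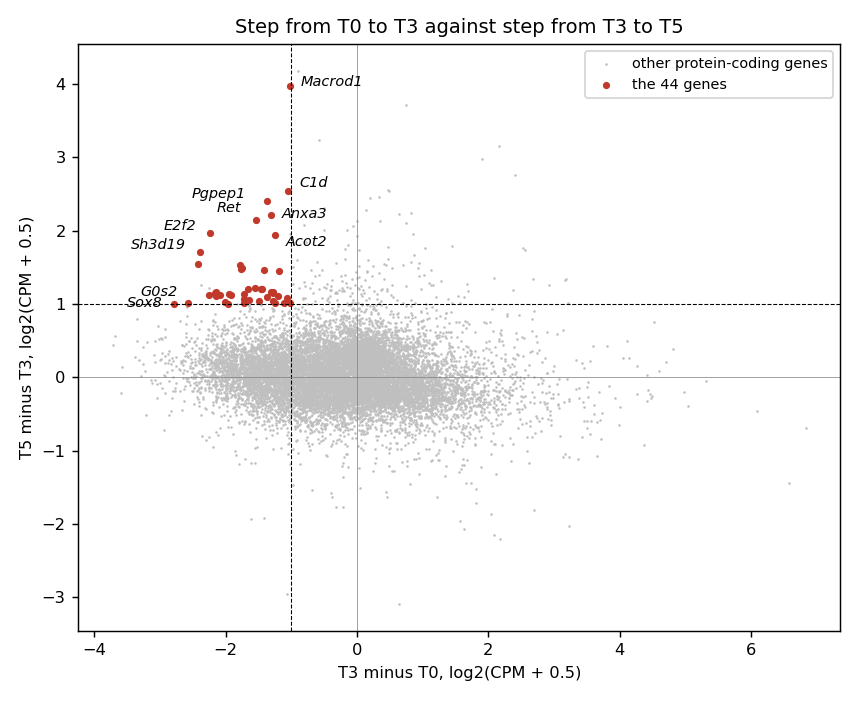
Each point is 1 of 13862 protein-coding genes, with T3 minus T0 on the horizontal axis and T5 minus T3 on the vertical axis, both as differences of group means of log2(CPM + 0.5). Dashed lines mark the thresholds of -1 and 1, and the 44 red genes lie beyond both, most of them close to the line at 1 and Macrod1 far above it at 3.97.

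Many of the genes were near a threshold. Just inside the limit on the fall were Rccd1 at -1.01 and Macrod1 at -1.02, and just outside Cys1 and Net1, both at -0.98. Just inside the limit on the rebound were Sox8 and Slc33a1, at 1.00 and 1.01, and just outside Ccdc60 and Mtmr4, at 0.9986 and 0.99. Just inside the limit on the T0 level were Acot2 at 3.59 CPM and Tedc2 at 4.27 CPM, and just outside the histone genes Hist1h1d at 1.79 CPM and Hist1h1b at 1.1 CPM. The scaling of the libraries mattered for the same reason. With TMM-scaled library sizes 26 of the 44 met the rule, with upper quartile sizes 23, and 20 met it under all 3 scalings: Adamts20, Ajuba, Arhgef2, Cbfa2t3, E2f2, Exoc6, Igf1, Lrrn1, Mylk2, Pgpep1, Rcan2, Ret, Rhof, Sertad4, Sh3d19, Slc38a3, Stbd1, Stc2, Trim35 and Txnip. Upper quartile scaling moved the median T3 minus T0 of the 13862 genes up by 0.33. No gene of the 44 lost its direction: the weakest fall was then -0.67, and the lowest rebound over both other scalings was 0.89, against thresholds of 1.

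Separation of the replicates was fuller than for most genes. In 40 of the 44, all T3 replicates lay below all T0 and all T5 replicates, which held for 8.58% of the 13862 genes; the selection favours this, so nothing is read from it. The exceptions were Ddit4 and Rpp40, where T3 overlapped T0, and Tmem120b and Rhof, where T3 overlapped T5. By single T5 columns, T3 also overlapped T5 in C1d and Rpp40. Columns A6 and B5 of Rpp40, at 7.53 and 7.81 CPM, lay within T3, which reached 7.97 CPM. In the edgeR quasi-likelihood test over 31999 genes (Benjamini-Hochberg adjusted p under 0.05), all 44 were called lower in T3 than in T0, beside 22.9% of all genes tested (37.9% in either direction). In T5 against T3, 38 of the 44 were called higher, beside 1.28% of all genes tested (2.17% in either direction). Both contrasts are those of the rule, so nothing is read from these counts. Tmem120b, Rpp40, Rhof, Ddit4, Lrrn1 and Sox8 were not, with adjusted p from 0.0856 for Rhof to 0.398 for Ddit4 by the same edgeR test.

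**Figure D2:**
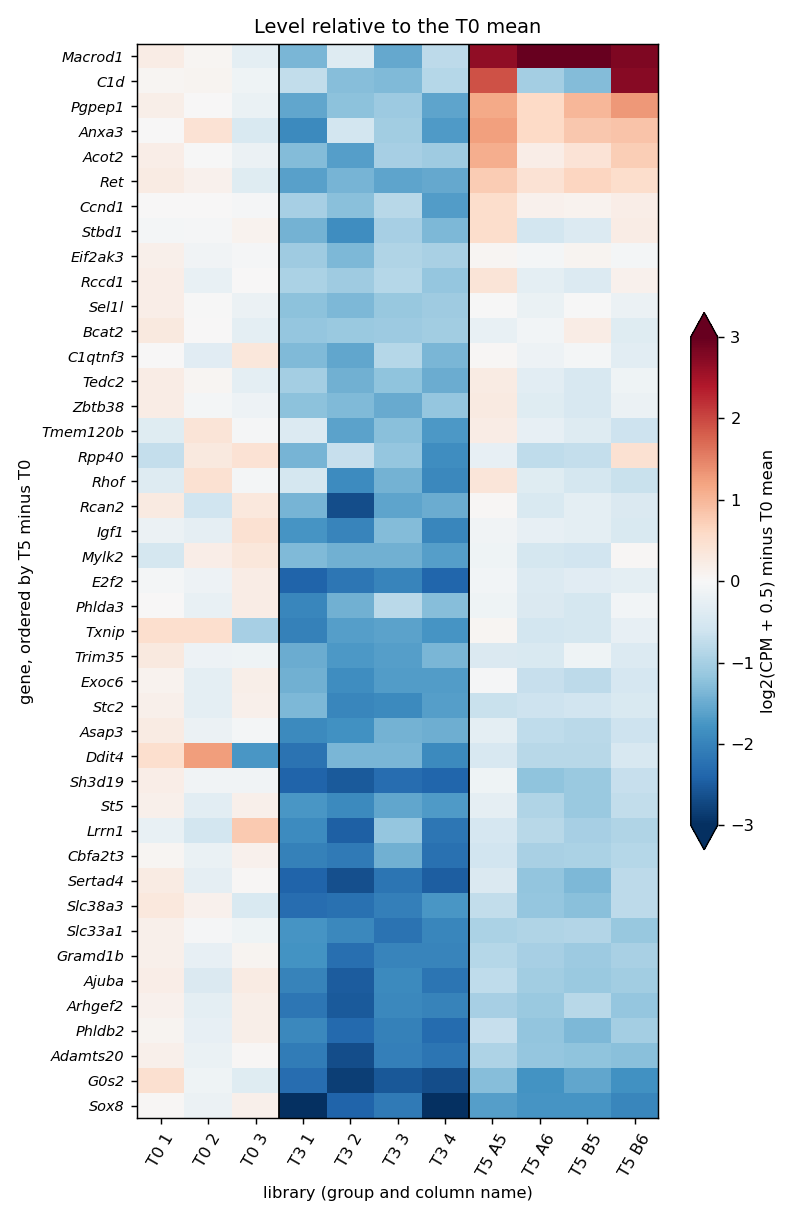
Rows are 43 of the 44 genes in the order of T5 minus T0, columns are the 11 libraries, and colour is log2(CPM + 0.5) minus the gene's T0 mean, with colours ending at -3 and 3 (the highest values of Macrod1 and the lowest of Sox8 lie at or beyond the ends). The 4 T3 columns are blue in nearly all rows, and the T5 columns go from red at the top, in Macrod1, to blue at the bottom, in Sox8.

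Genes of the endoplasmic reticulum and of stress formed a first group of 6, in which T3 minus T0 ran from -1.96 to -1.07 and T5 minus T3 from 1.01 to 1.48. It held Eif2ak3 (PERK, the reticulum's stress kinase, which slows translation), Sel1l (the adaptor of the ubiquitin ligase that removes misfolded proteins from the reticulum), Slc33a1 (the carrier of acetyl-CoA into the reticulum), Stc2 (stanniocalcin 2, a secreted target of the factor ATF4), Ddit4 (REDD1, an inhibitor of the growth kinase mTORC1) and Txnip (a thioredoxin-binding arrestin that restrains glucose uptake). The fall and the rebound of all 6 were set by the rule. The promoter windows of Sel1l, Ddit4 and Txnip, 3 genes of this group, are shown from RefSeq on GRCm38.p6. They run from 250 bases before to 50 after the annotated start, 5′ to 3′ on the gene's strand. They lie at chr12:91849108-91849407, minus strand, chr10:59951721-59952020, minus strand and chr3:96557707-96558006, plus strand. Capitals mark letters that matched a motif on either strand: CCAAT (the CCAAT box) and CCACG (the short core read with it in promoters of reticulum chaperones) in all 3, and GTAAACA (a FoxO site) in Txnip. Letters of the other motifs searched are not marked. CCAAT and CCACG were each searched for alone, without regard to their distance or order. Over all 10777 windows at hand, CCACG was in 46.3% and CCAAT in 37.9%. Among the genes of the group not shown, Slc33a1 and Stc2 held both, while Eif2ak3 held CCAAT but no CCACG.
Sel1l: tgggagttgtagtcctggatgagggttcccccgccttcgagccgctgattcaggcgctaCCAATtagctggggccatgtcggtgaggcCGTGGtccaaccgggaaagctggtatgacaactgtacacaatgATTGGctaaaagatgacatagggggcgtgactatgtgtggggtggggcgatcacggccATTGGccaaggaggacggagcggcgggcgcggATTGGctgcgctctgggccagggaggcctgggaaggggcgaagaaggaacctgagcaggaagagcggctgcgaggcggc
Ddit4: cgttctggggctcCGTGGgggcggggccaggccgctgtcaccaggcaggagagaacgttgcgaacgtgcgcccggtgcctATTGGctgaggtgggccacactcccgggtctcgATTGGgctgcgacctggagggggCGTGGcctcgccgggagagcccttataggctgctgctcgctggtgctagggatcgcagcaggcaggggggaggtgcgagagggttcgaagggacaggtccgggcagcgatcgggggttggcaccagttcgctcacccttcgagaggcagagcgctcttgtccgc
Txnip: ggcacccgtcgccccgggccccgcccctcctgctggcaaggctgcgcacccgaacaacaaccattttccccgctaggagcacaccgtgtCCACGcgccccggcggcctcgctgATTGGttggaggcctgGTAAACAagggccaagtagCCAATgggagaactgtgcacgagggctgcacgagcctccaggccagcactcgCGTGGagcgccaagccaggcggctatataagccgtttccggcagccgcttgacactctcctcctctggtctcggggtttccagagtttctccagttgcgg

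Eif2ak3 and Sel1l fell and came back close to their T0 level. Eif2ak3 stood at 51.1, 42.7 and 44.5 CPM in T0, 21.9, 17.7, 24.5 and 23.3 in T3, and 46.5 and 46.2 in T5. Sel1l stood at 95.2, 81.9 and 73.3 CPM in T0, 34.9, 32.1, 37.6 and 39.3 in T3, and 78.3 and 77.9 in T5. For both genes all T3 replicates were low, and the T5 replicates lay within or next to the range of T0. T5 minus T0 was 0.01 for Eif2ak3 and -0.09 for Sel1l. Neither was called different between T5 and T0 in the edgeR test (Eif2ak3 log2 fold change -0.07 ± 0.23 (SE), adjusted p = 0.825; Sel1l log2 fold change -0.18 ± 0.24 (SE), adjusted p = 0.568, Benjamini-Hochberg), which does not show that the levels were equal.

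Txnip and Ddit4 shared an uneven T0. Txnip stood at 105, 105 and 37.0 CPM in T0, 17.8, 23.2, 24.1 and 21.5 in T3, and 65.6 and 56.5 in T5. Replicate 3 of T0 was low, between T3 and T5, and T3 overlapped neither group. The counts of Txnip cannot be separated from those of Gm15441, an antisense gene at the same place, whose count was 1.00 to 1.07 times that of Txnip in every replicate. Ddit4 stood at 21.9, 37.2 and 4.27 CPM in T0, 2.93, 5.62, 5.66 and 3.76 in T3, and 9.84 and 9.55 in T5. Here replicate 3 of T0 lay inside the range of T3, so the groups overlapped, and the rebound was not called. Without that replicate, both genes were called lower in T5 than in T0 by the edgeR test.

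Slc33a1 and Stc2 came back in part. Stc2 stood at 10.8, 7.79 and 10.9 CPM in T0, 3.50, 2.13, 2.22 and 2.75 in T3, and 6.03 and 6.65 in T5. The 3 groups did not overlap, with T3 lowest and T0 highest. Slc33a1 had 18.2 ± 1.90 (SD, n = 3) CPM in T0, 4.30 ± 0.574 (SD, n = 4) in T3 and 9.08 ± 0.244 (SD, n = 2) in T5. Both were called lower in T5 than in T0 by the edgeR test with Benjamini-Hochberg adjustment (Stc2 log2 fold change -0.69 ± 0.26 (SE), adjusted p = 0.0381; Slc33a1 log2 fold change -1.09 ± 0.26 (SE), adjusted p = 0.00165). The call of Stc2 was lost when either T5 letter, T0 replicate 1, or T3 replicate 2 or 4 was left out, without a filter on low counts, with only T0 and T5 fitted, and with upper quartile factors.

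The 10 genes of metabolism and small-molecule transport included the largest rebound of all and the second deepest fall, and T3 minus T0 ran from -2.58 to -1.02 and T5 minus T3 from 1.01 to 3.97. Macrod1, a hydrolase that removes ADP-ribose from proteins and is found in mitochondria, lies at chr19:7056810-7198057, plus strand (GRCm38). Its promoter window (chr19:7056541-7056840, plus strand, RefSeq, GRCm38.p6) is shown because its rise was the largest; capitals mark CACGTG, an E-box, GGCGGGAA, the reverse of the E2F site TTCCCGCC, and CCACG on either strand.
Macrod1: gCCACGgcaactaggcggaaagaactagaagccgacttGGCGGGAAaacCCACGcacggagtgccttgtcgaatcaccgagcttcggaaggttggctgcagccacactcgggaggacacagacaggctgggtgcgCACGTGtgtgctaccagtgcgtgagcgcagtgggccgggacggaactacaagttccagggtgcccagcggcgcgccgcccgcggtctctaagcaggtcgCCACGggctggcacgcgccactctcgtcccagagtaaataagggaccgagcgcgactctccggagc

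Macrod1 stood at 153, 138 and 108 CPM in T0, 50.4, 100.6, 45.6 and 76.1 in T3, and 948 and 1101 in T5. All T5 replicates were above all T0 replicates, and T3 lay below both. The mean went from 68.1 ± 25.4 (SD, n = 4) CPM in T3 to 1025 ± 108 (SD, n = 2) in T5, which is 15.0 times the T3 level and 7.68 times the T0 level. All 4 T5 columns were high, at 835, 1103, 1256 and 929 CPM. Flrt1, a gene nested in an intron of Macrod1 on the other strand, had 11.9 CPM in T3 and 205 CPM in T5 (means), 0.137 to 0.206 times the count of Macrod1, so the share of each in these reads cannot be told apart.

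Other metabolic genes differed in how far they came back. Pgpep1, a peptidase that takes pyroglutamate off peptides, stood at 10.6, 9.48 and 8.15 CPM in T0, 2.87, 3.70, 4.12 and 2.77 in T3, and 18.3 and 21.3 in T5. Its T5 replicates were above all of T0. Stbd1, which tethers glycogen to membranes, stood at 9.15, 9.31 and 10.2 CPM in T0, 3.25, 2.24, 4.50 and 3.47 in T3, and 10.8 and 9.05 in T5, with T5 on both sides of T0. Its T5 columns A5 and B6, at 14.0 and 11.3 CPM, were above all of T0. Columns A6 and B5, at 6.39 and 7.05 CPM, were below all of T0. G0s2, an inhibitor of the fat-splitting lipase ATGL, stood at 12.9, 8.32 and 7.0 CPM in T0, 1.46, 0.867, 1.16 and 1.01 in T3, and 2.98 and 2.52 in T5. It stayed far below T0 in T5, and the 3 groups did not overlap. G0s2 lies inside Lamb3 on the other strand, whose counts were 10.7 to 35.7 times as high, with means of 121, 36.0 and 30.9 CPM in T0, T3 and T5. Gramd1b, a sterol carrier at membrane contacts, stood at 129, 96.7 and 123 CPM in T0, 32.9, 23.6, 29.0 and 28.9 in T3, and 60.8 and 56.2 in T5, again with 3 groups that did not overlap.

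Of the rest of this group, Acot2 (a mitochondrial thioesterase of acyl-CoA) had T5 minus T0 of 0.68, while Bcat2 (the mitochondrial branched-chain aminotransferase) had -0.10. Slc38a3, a carrier of glutamine, had the lowest of these 3 at -0.96. Tmem120b, a membrane protein of the nuclear envelope, overlaps Rhof on the other strand, and its count was 1.22 to 1.63 times that of Rhof. T3 replicate 1 was high in both (13.7 CPM for Tmem120b and 9.67 CPM for Rhof). Reads of the pair cannot be told apart, so it is not 2 independent cases. Gm26745, a noncoding gene, overlaps both, with counts 4.92 to 18.2 times those of Rhof and 4.00 to 11.8 times those of Tmem120b. For Gm26745, T3 minus T0 was -0.68 and T5 minus T3 was 0.16.

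**Figure D3:**
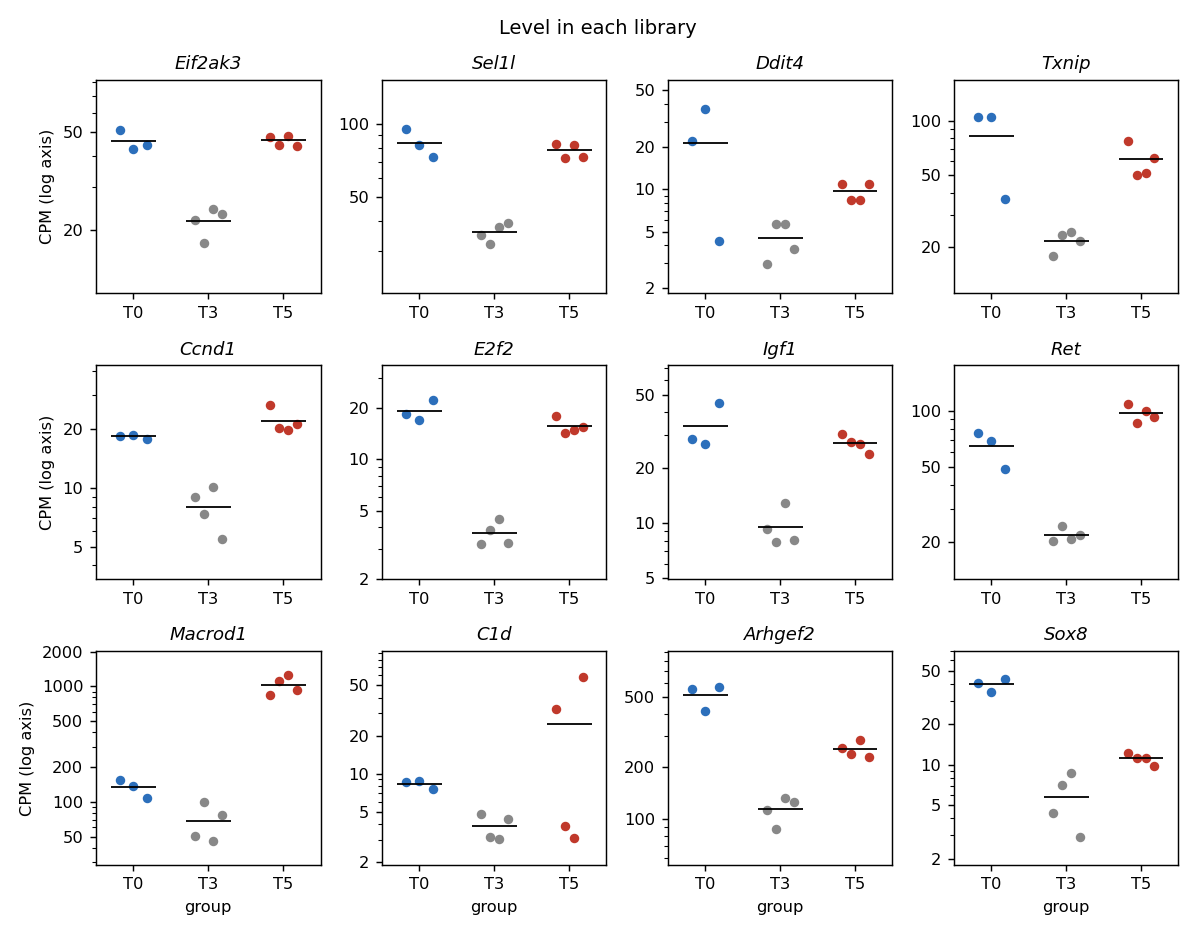
Each panel is 1 gene, with CPM on a log axis and the libraries of T0, T3 and T5 as points (T5 as its 4 columns) over the group mean of the replicates as a line. The T5 points of Eif2ak3 and Sel1l return to T0, those of Macrod1 stand above it, those of Arhgef2 and Sox8 stay between T3 and T0, and those of C1d split into 2 high and 2 low ones.

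Ligands, receptors and their regulators made up 8 genes, for which T3 minus T0 ran from -2.25 to -1.28 and T5 minus T3 from 1.10 to 2.15. Igf1, the growth factor that drives muscle growth, stood at 28.7, 26.9 and 45.1 CPM in T0, 9.27, 7.90, 12.9 and 8.08 in T3, and 29.3 and 25.3 in T5. Its T3 replicates were low, and T5 overlapped T0. Ret, the receptor tyrosine kinase for ligands of the GDNF family, stood at 76.2, 69.4 and 49.2 CPM in T0, 20.3, 24.1, 20.8 and 21.6 in T3, and 99.5 and 96.2 in T5. Its 3 groups did not overlap, and T5 was the highest, but T5 against T0 was not called by the edgeR test (log2 fold change 0.49 ± 0.26 (SE), adjusted p = 0.156, Benjamini-Hochberg) except with upper quartile factors or with only T0 and T5 fitted.

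Rcan2, an inhibitor of the phosphatase calcineurin, stood at 410.1, 227 and 429 CPM in T0, 129, 54.1, 113 and 122 in T3, and 307 and 267 in T5. T0 replicate 2 and T3 replicate 2 were the low ones of their groups, and T5 overlapped T0. Phlda3, a p53 target that restrains the kinase Akt, stood at 4.42, 3.66 and 5.22 CPM in T0, 0.760, 1.29, 2.30 and 1.52 in T3, and 3.61 and 3.48 in T5, with both T5 replicates just below the range of T0. Its single T5 columns A5 and B6, at 3.97 and 4.12 CPM, lay inside that range. Adamts20, a secreted metalloprotease that cleaves versican, stood at 131, 103 and 121 CPM in T0, 27.1, 18.3, 28.2 and 25.5 in T3, and 58.0 and 50.1 in T5. It had the lowest T5 minus T0 of the 8, at -1.12, and the 3 groups did not overlap. Trim35 (a ubiquitin ligase) and C1qtnf3 (a secreted protein of the C1q family) had T5 minus T0 of -0.34 and -0.11, and Lrrn1, a leucine-rich repeat membrane protein, -0.79, with T0 replicate 3 high at 54.0 CPM against 26.7 and 21.3.

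Genes of the cell cycle and the nucleus made up 10, for which T3 minus T0 ran from -2.79 to -1.01 and T5 minus T3 from 1.00 to 2.54. Ccnd1, cyclin D1, which starts the G1 phase, stood at 18.6, 18.7 and 17.9 CPM in T0, 9.02, 7.39, 10.1 and 5.45 in T3, and 23.9 and 20.5 in T5. All T5 replicates were above all T0 replicates, yet the difference from T0 was not called by the edgeR test (log2 fold change 0.19 ± 0.25 (SE), adjusted p = 0.566, Benjamini-Hochberg) except with upper quartile factors. It overlaps LTO1, whose count was 0.696 to 1.401 times its own, so part of these reads may belong to that gene. E2f2, a transcription factor of S-phase genes, stood at 18.4, 17.0 and 22.2 CPM in T0, 3.19, 3.88, 4.49 and 3.23 in T3, and 16.4 and 15.1 in T5. It had the largest value of the smaller of its 2 steps, 1.96, and both T5 replicates were below all of T0. The single T5 column A5 of E2f2, at 17.9 CPM, was above T0 replicate 2.

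C1d, a cofactor of the nuclear RNA exosome, was the gene for which the libraries of T5 were least alike. It stood at 8.64, 8.81 and 7.58 CPM in T0, 4.83, 3.17, 3.04 and 4.37 in T3, and 20.4 and 29.2 in T5. The 4 T5 columns behind the last values were at 32.7, 3.85, 3.08 and 58.2 CPM for A5, A6, B5 and B6. Columns A6 and B5 thus lay in the range of T3, which was 3.04 to 4.83 CPM, and columns A5 and B6 held the whole rise. The sum by letter put a high and a low column together in A and in B, so the 2 replicates looked alike. With the 4 columns as separate libraries the adjusted p of T5 against T0 went from 9.97e-05 to 0.0494 (edgeR, Benjamini-Hochberg), the highest over its alternatives, of which the lowest was 8.60e-07.

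Sox8, a factor of the SoxE family found in satellite cells, had the deepest fall of the 44. It stood at 40.7, 34.8 and 43.9 CPM in T0, 4.39, 7.05, 8.65 and 2.88 in T3, and 11.8 and 10.6 in T5. The T5 replicates were above all of T3 and far below T0. Sertad4, a nuclear protein with a SERTA domain, stood at 16.6, 11.4 and 14.5 CPM in T0, 2.22, 1.84, 2.68 and 2.13 in T3, and 8.39 and 6.51 in T5, and Zbtb38, a zinc finger protein that binds methylated DNA, at 137, 112 and 105 CPM in T0, 49.7, 46.3, 41.0 and 52.4 in T3, and 121 and 93.9 in T5. Sertad4 remained below T0 in T5, while Zbtb38 overlapped it. The remaining nuclear genes were Cbfa2t3 (a transcriptional corepressor), Tedc2 (a centriole protein), Rccd1 (a partner of a histone demethylase) and Rpp40 (a subunit of RNase P), with T5 minus T0 of -0.83, -0.13, 0.00 and -0.25. Tedc2 overlaps BC028777 and Rccd1 overlaps Prc1, with counts 1.21 to 1.69 and 0.549 to 0.726 times their own, and both partners moved the same way.

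Genes of the cytoskeleton and of membrane traffic made up 10, for which T3 minus T0 ran from -2.40 to -1.30 and T5 minus T3 from 1.01 to 2.22. Among them was the gene with the highest mean in T0 of the 44. Arhgef2 (GEF-H1, a microtubule-bound activator of small GTPases) stood at 552, 416 and 569 CPM in T0, 112, 87.9, 133 and 125 in T3, and 247 and 257 in T5. St5, an activator of Rab GTPases, stood at 391, 283 and 388 CPM in T0, 104, 93.0, 119 and 108 in T3, and 247 and 185 in T5. Sh3d19, an adaptor with SH3 domains, stood at 285, 230.3 and 229.6 CPM in T0, 46.5, 42.7, 49.8 and 47.2 in T3, and 176 and 132 in T5. In all 3 genes the replicates of the groups did not overlap, with T3 lowest and T0 highest. The single T5 column A5 of St5, at 292 CPM, was above T0 replicate 2.

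Phldb2 (LL5β, which anchors microtubules at the cell cortex) stood at 96.0, 76.5 and 102.5 CPM in T0, 23.3, 17.8, 22.1 and 17.9 in T3, and 49.1 and 39.5 in T5, and followed the same order without overlap. Anxa3, a membrane-binding annexin, took another course and stood at 39.3, 52.4 and 28.2 CPM in T0, 9.92, 26.3, 18.5 and 11.5 in T3, and 78.1 and 69.3 in T5. Its T5 replicates were above all of T0, with a T5 minus T0 of 0.91, and T0 and T3 spread widely around their means. T5 against T0 was not called for Anxa3 by the edgeR test (log2 fold change 0.77 ± 0.36 (SE), adjusted p = 0.103, Benjamini-Hochberg), except with upper quartile factors, without a filter on low counts, with only T0 and T5 fitted, or without T0 replicate 2. Of the rest, Ajuba (a LIM protein of cell junctions) and Asap3 (a GTPase-activating protein for Arf) had T5 minus T0 of -0.98 and -0.59. For Exoc6 (a subunit of the exocyst), Mylk2 (the myosin light chain kinase of skeletal muscle) and Rhof (a small GTPase of filopodia) it was -0.46, -0.26 and -0.25.

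T5 minus T0 is the sum of the 2 steps that the rule used, so its values and calls are given as a description. Expressed as a share of the fall on the log2 scale, the rebound had a median of 81.3% and ran from 36.0% in Sox8 to 388% in Macrod1. It was at least 100% in 10 genes, between 50% and 100% in 32, and under 50% in 2. The median T5 minus T0 of the 44 was -0.27, against -1.48 in the 3090 genes that fell only and -0.11 over all 13862 genes. The rule that sets the fall and the rebound also bounds this value from below, so the distance from the genes that fell only is no finding.

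In T5 against T0, edgeR called 19 of the 44 genes, beside 35.7% of all genes tested: 3 higher, beside 13.2%, and 16 lower, beside 22.5%. Macrod1 (log2 fold change 2.85 ± 0.34 (SE), adjusted p = 9.81e-07), C1d (log2 fold change 1.49 ± 0.27 (SE), adjusted p = 9.97e-05) and Pgpep1 (log2 fold change 0.99 ± 0.26 (SE), adjusted p = 0.00471) were higher in T5 (edgeR quasi-likelihood, Benjamini-Hochberg). The lowest were Sox8 (log2 fold change -1.90 ± 0.34 (SE), adjusted p = 1.11e-04), G0s2 (log2 fold change -1.87 ± 0.31 (SE), adjusted p = 5.07e-05), Adamts20 (log2 fold change -1.21 ± 0.25 (SE), adjusted p = 4.18e-04), Phldb2 (log2 fold change -1.11 ± 0.23 (SE), adjusted p = 5.67e-04) and Arhgef2 (log2 fold change -1.09 ± 0.26 (SE), adjusted p = 0.00163) in the same test. Ajuba, Slc38a3, Slc33a1, Gramd1b, Sertad4, Lrrn1, Cbfa2t3, St5, Sh3d19, Stc2 and Asap3 were lower too, with log2 fold changes from -1.13 for Ajuba to -0.69 for Asap3. The share called was 43.2%, beside 35.7% of the 31999 genes tested, which are more than the 13862 from which the rule chose. It was 36.4% for lower calls and 6.82% for higher calls. The rule used these libraries too, so nothing is read from these shares. Of the 44 genes, 25 were not called.

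The lower calls were spread over the roles: 6 of 10 cytoskeletal and traffic genes, 3 of 10 metabolic, 3 of 10 nuclear, 2 of 8 signalling and 2 of 6 stress genes. By the replicates alone, in 20 genes both T5 replicates lay below all T0 replicates (44.3% of the 13862 genes), in 7 above (27.0%), and in 17 they overlapped. Several calls changed when 1 replicate was left out. Without a T5 letter, 2 libraries are gone and T5 has 1 replicate, so a call lost then need not have rested on that letter. Pgpep1, Sertad4 and Slc38a3 were not called without T5 letter B, Arhgef2 not without letter A, and St5, Sh3d19, Lrrn1, Cbfa2t3 and Asap3 were lost when either letter was left out. Lrrn1 was also lost without T0 replicate 3, Sh3d19 without T0 replicate 1, and Asap3 without T0 replicate 1 or 2 or T3 replicate 2, 3 or 4. Without T0 replicate 3, 6 more genes were called lower, among them Bcat2, Trim35, Exoc6, Txnip and Ddit4. With upper quartile factors the share of lower calls among all genes called fell from 62.9% to 44.1%, Stc2, Asap3, St5 and Lrrn1 were no longer called, and Anxa3, Acot2, Ret and Ccnd1 were called higher. With only T0 and T5 fitted, the same 4 genes lost their call, and Anxa3, Acot2 and Ret were called higher. Acot2 was also called higher without T0 replicate 1, Exoc6 lower with DESeq2 or 4 T5 columns, and Ddit4 lower with 4 T5 columns, no filter or a replicate block. Lrrn1 was lost with that block too.

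**Figure D4:**
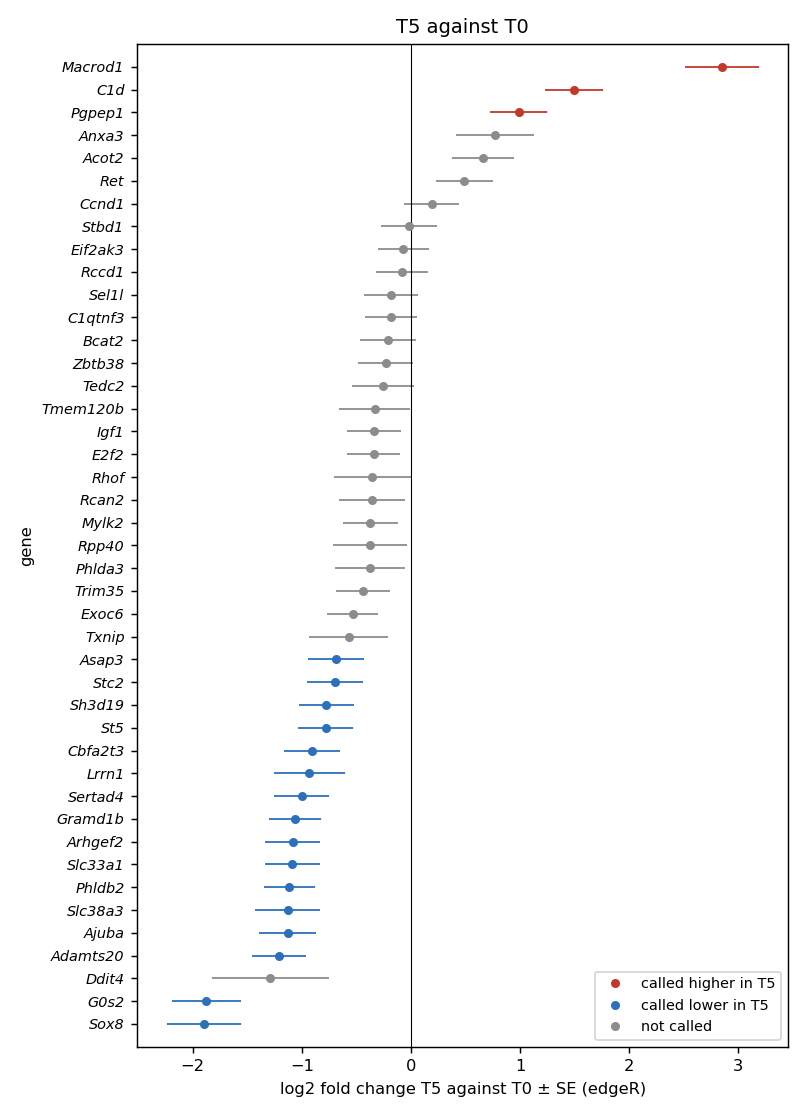
Points are the log2 fold changes of T5 against T0 for 43 of the 44 genes from the edgeR fit, bars are ± 1 SE, and colour gives the call at an adjusted p under 0.05. The 3 genes at the top, from Pgpep1 to Macrod1, were called higher, and 16 at the bottom, down to Sox8, were called lower.

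The rebound also varied between the T5 libraries. Taken over the T3 mean, it was 1 or more in 43 of the 44 genes in column A5, 35 in B6, 26 in A6 and 24 in B5. It was 1 or more in all 4 columns in 18 genes, among them Macrod1, E2f2, Ret, Igf1, Txnip, Eif2ak3 and Sel1l. It was above 0 in all 4 columns in 43 genes, the exception being C1d, at -0.26 in column B5. The median over the 44 genes was 1.4 in A5, 1.02 in A6, 1.03 in B5 and 1.15 in B6. Over all 13862 genes the columns' medians were -0.02, 0.11, 0.04 and -0.10, so the rank of the columns among the 44 genes was not that among all genes.

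Several members belong to pathway lists. The rule favoured their calls in T3 against T0 and in T5 against T3, so these calls in the counts below show nothing new. The same holds for Pdia4, which met the rule and was left out by name. Beside the counts below, the shares of all genes called higher and lower by edgeR were 15.0% and 22.9% in T3 against T0, 1.28% and 0.888% in T5 against T3, and 13.2% and 22.5% in T5 against T0. On a list of 24 genes of protein folding in the reticulum and the unfolded protein response, 12 rose and 0 fell from T3 to T5, with a median log2 change of 0.92 against 0.05 over all genes tested (edgeR): Hspa5, Hsp90b1, Pdia3, Pdia4, Pdia6, Dnajb11, Sdf2l1, Creld2, Hyou1, Herpud1, Selenos and the member Sel1l. From T0 to T3, however, 11 of the 24 had risen and only Sel1l and Pdia4 had fallen. In T5 against T0, 21 were higher and 0 lower, and Sel1l was not called. On a list of 26 targets of ATF4 and amino acid shortage, 9 rose and 0 fell from T3 to T5 (median 0.63), among them Stc2. From T0 to T3, 17 had risen and 4 had fallen (Slc7a11, Stc2, Ddit4 and Gpt2).

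On a list of 25 FoxO and starvation genes, 13 had fallen from T0 to T3, Txnip and Ddit4 with them, and 5 had risen. From T3 to T5, 3 rose (Foxo6, Fbxo32 and Txnip) and 0 fell, and in T5 against T0 10 of the 25 were lower and 5 higher. Of 36 cell cycle genes, 12 had risen and 8 had fallen in T3, and in T5 Ccnd1, E2f2, Cdk1, Mki67 and Top2a rose over T3 and 0 fell (median 0.18). Of 25 p53 targets, 14 had risen and 6 had fallen in T3, and Phlda3, Sesn2 and Gdf15 rose from T3 to T5; Sesn2 and Gdf15 had risen in T3 as well, where Phlda3 had fallen. Of 19 glucocorticoid genes, 8 had risen and 7 had fallen in T3, and 0 were called from T3 to T5. Of 23 hypoxia genes, 8 had risen and 6 had fallen, and Adm rose from T3 to T5; Ddit4 is on both lists. Of 26 genes of satellite cell quiescence, which hold no member, 7 had risen and 12 had fallen in T3, and 0 rose and 5 fell from T3 to T5. The lists describe these libraries only, and none was tested as a set.

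The 44 genes lay on 18 chromosomes. Their median span was 28.7 kb, against 24.6 kb in genes that fell only and 31.97 kb over all, and their median exonic length was 4.49 kb against 4.50 and 4.68 kb. The share that overlapped another annotated gene was 56.8%, against 56.7% and 58.7%, and 19 of the 44 overlapped none. The 25 with an overlap were Macrod1, Anxa3, Ccnd1, Eif2ak3, Rccd1, Bcat2, Tedc2, Zbtb38, Tmem120b, Rpp40, Rhof, Rcan2, Igf1, Txnip, Trim35, Sh3d19, St5, Cbfa2t3, Sertad4, Slc33a1, Gramd1b, Arhgef2, Phldb2, G0s2 and Sox8, and their counts may hold reads of the partner. Cbfa2t3 is crossed by Gm20388, whose counts were 37.9 to 304 times as high.

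Promoter windows of the same length were at hand for 35 of the 44 genes and for 10777 of the 13862. Median GC content was 62.3% in the 35, 59.3% in genes that fell only and 60.7% over all. With both strands searched, CCACG was in 57.1% of the 35 windows and 46.3% of all, CCAAT in 42.9% and 37.9%, GGGCGG (GC box) in 57.1% and 62.9%, and TGGGAA (RBPJ core) in 22.9% and 23.0%. CACGTG, which can share letters with CCACG, was in 8.57% and 9.87%, and GTAAACA in 5.71% (Ajuba and Txnip) and 2.48%. TGATGNAA (ATF4 composite site), TGACGTCA (cAMP response element), TTCCCGCC and, as the box of core promoters, TATAAA were in 1 window of the 35 each, and in 2.15%, 3.11%, 4.02% and 7.11% of all. TGAGTCA (AP-1 site) was in 0 of the 35 and 3.35% of all. A match is a run of letters and not a shown binding site.

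The level of the genes was also set against background. Over 1708 genes silent in these cells the counts per kb of gene span were 0.0196 to 0.0278 CPM in T3 and 0.0274 to 0.0288 CPM in T5. The T3 level of 16 members was under 10 times that background over their span (Acot2, Rccd1, Tmem120b, Rhof, Igf1, E2f2, Exoc6, Stc2, Lrrn1, Cbfa2t3, Sertad4, Slc33a1, Gramd1b, Ajuba, Phldb2 and Adamts20), with 4.22 times as the lowest. With the background subtracted, a step added after the data had been seen, all 44 still met the fall and the rebound.

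Markers of other cell types moved in both steps. The summed level of 18 myofibre markers ranged over 180.3 to 228 CPM in T0, 218 to 260.4 CPM in T3 and 203 to 210.2 CPM in T5; by edgeR 12 were higher and 2 lower in T3 against T0, and 0 higher and 6 lower in T5 against T3. For 15 endothelial markers the sums were 296 to 464, 493 to 611 and 344 to 362 CPM, with 6 higher and 0 lower in the first step and 0 higher and 5 lower in the second. For 14 macrophage markers they were 93.6 to 132, 275 to 299.9 and 283 to 301 CPM, with 5 higher and 0 lower, then 0 called. The endothelial and macrophage sums were higher in all T3 replicates than in all of T0, the opposite of the 44 genes, and the myofibre sums overlapped.

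For 15 markers of fibro-adipogenic progenitors the sums were 962 to 1227, 504 to 823 and 666 to 707 CPM. In the first step 3 markers were higher and 4 lower, and in the second 0 higher and 1 lower. These sums were lower in all T3 replicates than in all of T0, as the 44 genes were. The T5 sums lay within the range of T3. For 12 pericyte markers they were 838 to 1404, 736 to 999.5 and 608 to 620.2 CPM, with 2 higher and 4 lower, then 0 higher and 1 lower. For 8 erythroid markers they were 34.2 to 45.8, 11.8 to 30.4 and 28.6 to 43.95 CPM, with 0 higher and 1 lower, then 1 higher and 0 lower, so this sum was lower in T3 and higher again in T5, as the 44 genes were, though T5 overlapped T3. Schwann cell markers (11 genes, at 107 to 135, 95.5 to 109 and 105 to 110.01 CPM) had 3 higher and 2 lower, then 1 higher and 1 lower. Egr2, among the Schwann cell markers, is also an immediate early gene and was called higher in T3 against T0. Notch3, among the pericyte markers, is also a Notch receptor and was called lower in both steps. Whether such calls stem from other cells was not tested. Markers of neutrophils (5.28 to 10.02, 4.79 to 21.6 and 10.6 to 10.7 CPM) and lymphocytes (6.92 to 17.9, 8.39 to 11.7 and 11.97 to 12.2 CPM) had 0 called in the second step, and 0 and 1 higher in the first. No marker in the table was at 0 in all libraries, and the part of other cells in the fall or the rebound was not tested.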

How the data were processed

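Fixed muscle stem cells of 3 groups were profiled by total RNA sequencing from 65-bp single-end reads, with RNA from a kit for formalin-fixed tissue and directional libraries, per the labels' protocols. The authors deposited raw counts per gene for 11 libraries. Per the submitters' processing notes, the tools were DESeq2 1.12.3, R 3.3.1, featureCounts 1.4.6-p3 and STAR 2.5.0a, on GRCm38; the annotation release, strand setting and filters are not given in the sources used here. Gene types and spans came from GENCODE vM21, which held 48349 of the 48709 IDs (360 had none). Columns were assigned to groups by name, and 0 columns were left over; which column is which titled sample within a group is not settled.

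From the deposited counts, CPM and log2(CPM + 0.5) were computed. edgeR 4.0.16 (TMM, filterByExpr, quasi-likelihood, two-sided) was fitted on all 3 groups, with Benjamini-Hochberg adjustment over 31999 genes; DESeq2 1.42.0 was an alternative. Of the 44 genes, 1 is counted but not reported here by name. Whether replicate numbers pair the samples is not settled. Deviations from group means correlated at -0.20, 0.36 and 0.30 for numbers 1 to 3 of T0 and T3. For different numbers of T0 and T3 they correlated at -0.45 to 0.47. The 44 genes, the gene lists and the alternatives were chosen with earlier results of these data known, and the role groups after the values were seen. Values in every replicate are given for the 10 genes highest in T0, the 10 with the largest smaller step, list members, and called genes among the 5 highest and 5 lowest T5 minus T0; Eif2ak3 was added after its values were seen.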

Additional observations from a re-analysis of the deposited data

How the results depend on the processing

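The number of genes that met the rule was 44. It was 25 with a pseudocount of 2, 26 with TMM-scaled and 23 with upper quartile library sizes, 93 and 15 with steps of 0.8 and 1.2, 19 among genes without an overlap, and 73, 38, 34 and 44 with T5 taken from column A5, A6, B5 or B6 alone; the single columns and the subtraction of background (57) were chosen after seeing the data. Leaving out 1 replicate gave 32 to 53. Genes called in T5 against T3 numbered 695, and 1213 without a filter, 2993 with only T3 and T5 fitted, 2122 with 4 T5 columns, and 184 to 2503 without 1 replicate (lowest without T5 letter B, highest without T0 replicate 3). In T5 against T0, 11413 were called, and 7392 to 17556 without 1 replicate, with the same extremes; in T3 against T0, 12139 and 10538 to 15955. Lower calls were 60.4% of calls in T3 against T0 and 44.7% with upper quartile factors, and 40.9% in T5 against T3 but 66.2% with DESeq2. The 25 genes not called in T5 against T0 were 22 to 26 under other settings and 20 to 34 without 1 replicate; the median T5 minus T0 of -0.27 was below 0 in all (-0.00022 with upper quartile sizes; -0.38 to -0.26 without 1 replicate). With a replicate block, 11936, 947 and 13098 genes were called in T3 against T0, T5 against T3 and T5 against T0, 25 of the 44 remained uncalled in the last, and Lrrn1 lost and Ddit4 gained a call. Of 660 values of single genes over these settings, 602 stayed called or uncalled, 36 lost a call and 22 gained one. The sign changed in 22 values of 10 genes, none called in either fit, 10 of them with upper quartile factors; where a call changed, the cause was not tested. Letters A and B leave T5 with 2 replicates, and leaving 1 out assumes that the other varies like the rest.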
